A study of Mus musculus with 714 samples.

Results

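The genes described here belong to MHC class I antigen presentation and to the interferon response, in epithelial cells of the mouse uterus between birth and adulthood. They were chosen by name: every row of the table whose name starts with H2-, except the class II chains H2-Ab1, H2-Eb1 and H2-Aa, every row that starts with Irf, Stat, Isg, Oas or Gbp, every Ifit, Ifi or Trim name followed by a digit, and the rows Tap1, Tap2, B2m, Psmb8, Nlrc5 and Usp18. The names found 0.809% of the 12479 gene rows. By role, 13 rows are class I heavy chains together with B2m, 3 supply peptides, 17 are regulators, 21 are interferon-induced genes and 40 are Trim genes. The names also took in 6 accessory chains of the class II pathway and 1 metabolic gene, H2-Ke6, which encodes a hydroxysteroid dehydrogenase and sits in the MHC region. The set is thus wider than its name, and every result is given by role. Psmb9, Psmb10 and Bst2, which fit the same pattern of names, had no row in the table and could not be analysed.

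The series compared epithelial cells of 5 ages to follow how the uterine epithelium develops. ICR mice gave the uteri at postnatal day (pnd) 0, 7, 14, 28 and 56, and cells carrying CD326 (EpCAM), a surface protein of epithelia, were sorted singly. The table holds 714 cells, of which 56 were of pnd28 and 45 of pnd56. All 5 groups share the strain, the tissue and the sort, and the labels name no treatment, altered gene, litter, animal or pool. Each age was therefore taken as 1 sample made of many cells, no test was made, and no difference between ages has a replicate check. CEL-seq, the library method, amplifies RNA linearly and counts reads near the 3′ ends of transcripts. In sums over cells, fewer cells that express a gene and less RNA per cell cannot be told apart.

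MHC class I molecules are found on nearly every nucleated cell and show short peptides from inside the cell to cytotoxic T cells and natural killer cells. A heavy chain, in the mouse from genes such as H2-D1 and H2-K1, pairs with beta-2-microglobulin, the product of B2m. The proteasome cuts the peptides, the TAP transporter (Tap1 and Tap2) brings them into the endoplasmic reticulum, and chaperones load them there. Interferons raise the transcription of this whole pathway through STAT proteins and interferon regulatory factors, together with a wider programme of antiviral genes. In the uterus the epithelium is also a source of interferon epsilon, which is known there for its tie to the oestrous cycle.

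Levels are summed counts over the cells of an age per 1000000 counts of all genes (CPM), with an exact Poisson 95% interval in square brackets. A difference between ages is given as a log2 ratio of these levels, later age over earlier age, with an exact conditional binomial interval. All intervals cover counting error only, and levels are not scaled by gene length. The totals were 582615, 732957, 354047, 96248 and 81894 counts from pnd0 to pnd56, and the median per cell was 3037, 2492, 1782, 1600 and 1670 counts. A floor of 3 counts, used in ratios where an age had a count of 0, stood at 5.15, 4.09, 8.47, 31.2 and 36.6 CPM, below the exact upper limits of 0 counts, which are 6.33, 5.03, 10.4, 38.3 and 45.04 CPM, so the 2 oldest ages are the least precise. The cell titles form 10 blocks of 96 numbers, each with cells of 1 age (2, 3, 3, 1 and 1 blocks). The labels do not say what a block is, and age and block cannot be told apart. The epithelial keratin Krt18 was counted in 98.8%, 98.9%, 91.9%, 78.6% and 91.1% of the cells in order of age. The 12 epithelial markers summed to 9272, 8927, 12055, 8239 and 9671 CPM, but 5 of them (Krt8, Krt19, Cldn4, Esrp1 and Elf3) were at 0 at pnd56 and had no more than 32 counts at any age. Of these, Krt8 was also at 0 at pnd7, and Cldn4 and Elf3 at pnd14 and pnd28.

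All members together made up 5304, 5329, 5663, 8488 and 10196 CPM. Their total was 1.92-fold higher at pnd56 than at pnd0 (log2 0.94 [0.83, 1.05]). The roles did not share this difference. The class I heavy chains with B2m summed to 441.1, 633, 878.4, 2307 and 3663 CPM, and the interferon-induced genes to 429, 293, 542.3, 1029 and 2381 CPM. The regulators stood at 1855, 1892, 2031, 2234 and 1624 CPM, and the Trim genes at 2276, 2096, 1825, 1881 and 1832 CPM. Presentation molecules and interferon-induced genes were thus several-fold higher at pnd56 than at pnd0, at log2 3.05 [2.81, 3.30] and 2.47 [2.19, 2.75]. The regulators differed little as a group, at log2 −0.19 [−0.46, 0.07], and the Trim genes were slightly lower, at −0.31 [−0.57, −0.07].

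**Figure D1:**
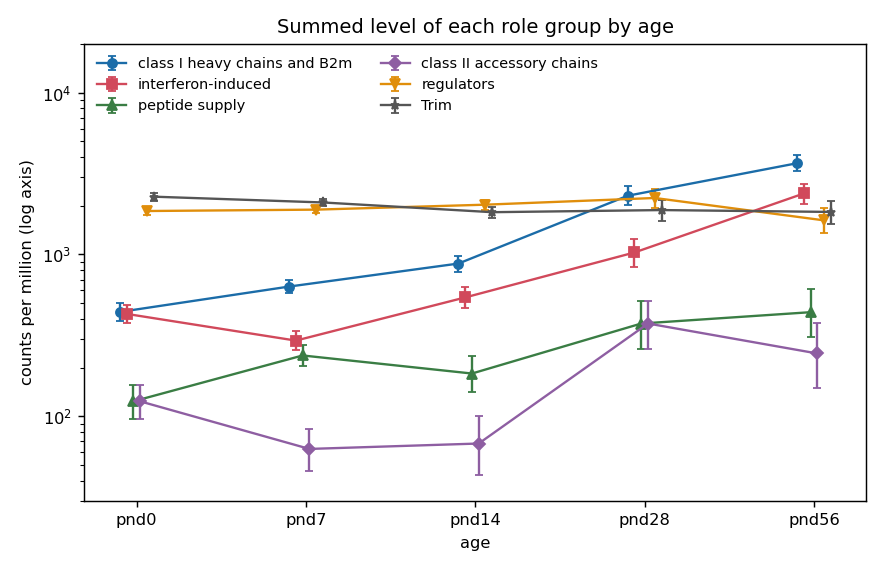
Summed level of each role group at the 5 ages, in CPM on a log axis, with exact Poisson 95% intervals. The class I group stands at 3663 CPM at pnd56, against 441.1 CPM at pnd0, and crosses the nearly flat lines of the regulators and the Trim genes, while the interferon-induced group dips to 293 CPM at pnd7 and stands at 2381 CPM at pnd56.

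Counted gene by gene, few members could be measured at the older ages. Measured members are those with 20 counts or more in the 2 ages together, and called ones differed at least 2-fold. Of all members, 55 had 20 or more counts in the whole series, and 36 had fewer than 10. Between pnd7 and pnd0, 3 of 46 measured members were at least 2-fold higher and 3 lower, against 4.94% and 7.61% of all measured rows. Between pnd14 and pnd7, 10 of 46 were higher and 5 lower, against 10.7% and 14.3% of all rows. These 2 early counts depended on single blocks. Without block 2 of pnd0, 10 members were higher and 1 lower at pnd7, against 8.01% and 7.30% of all rows measured there. Without block 7 of pnd14, 5 were higher and 9 lower at pnd14, against 10.4% and 18.02% of all rows measured there. The shares of all rows thus moved as well. Between pnd28 and pnd14, 11 of 33 were higher and 2 lower, against 11.9% and 23.2%. Between pnd56 and pnd28, 4 of 20 were higher and 4 lower, against 14.8% and 16.5%. Over the whole span, pnd56 against pnd0, 11 of 39 were higher and 8 lower, against 10.3% and 27.4%. The median log2 ratio of the measured members over the whole span was 0.02, beside −0.34 for all measured rows. This middle value was shared by Irf2bp1, with 8 counts at pnd56 and 56 at pnd0, and by Irf2. For Irf2, which had no count at pnd56, it is only an upper bound. By role, the higher members were 3 of 3 class I genes, 1 of 2 for peptide supply, 4 of 5 interferon-induced genes, 2 of 12 regulators and 1 of 14 Trim genes. The lower ones were 3 regulators, 4 Trim genes and H2-Ke6.

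The heavy chain H2-D1 carried the class I result. It stood at 193.95 [160, 233.2], 386.1 [342.4, 433.8], 485.8 [415.9, 564.1], 1548 [1310, 1818] and 2711 [2366, 3092] CPM. Each age stood above the one before it, and the intervals of pnd28 and pnd56 overlapped with no other age. H2-D1 was 14.0-fold higher at pnd56 than at pnd0 (log2 3.80 [3.47, 4.14]), and the step between pnd28 and pnd14 was log2 1.67 [1.35, 1.997]. The blocks lay at 186.2 to 201.9 CPM at pnd0, 296 to 462.7 CPM at pnd7 and 436.5 to 551.1 CPM at pnd14, so those of pnd7 and pnd14 overlapped, while every block of those 3 ages lay below both later ages. No cell held more than 9.01% of the H2-D1 counts of its age.

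B2m, the light chain of every class I molecule, followed with 111.6 [86.1, 142.2], 136.4 [111.01, 165.9], 245.7 [196.8, 303], 550.7 [412.5, 720] and 696 [527.2, 901.8] CPM. It was 6.24-fold higher at pnd56 than at pnd0 (log2 2.64 [2.10, 3.18]). The intervals of neighbouring ages overlapped between pnd0 and pnd7 and between pnd28 and pnd56, and were apart at the 2 steps between them. These are values over all cells, and B2m in subsets of cells is given below with the markers of other cell types. H2-K1, the other classical heavy chain of the table, had 25, 35, 26, 7 and 11 counts, or 42.9, 47.8, 73.4, 72.7 and 134.3 CPM. Its ratio of pnd56 over pnd0 was log2 1.65 [0.48, 2.72], and no step between neighbouring ages had an interval that left out 0.

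**Figure D2:**
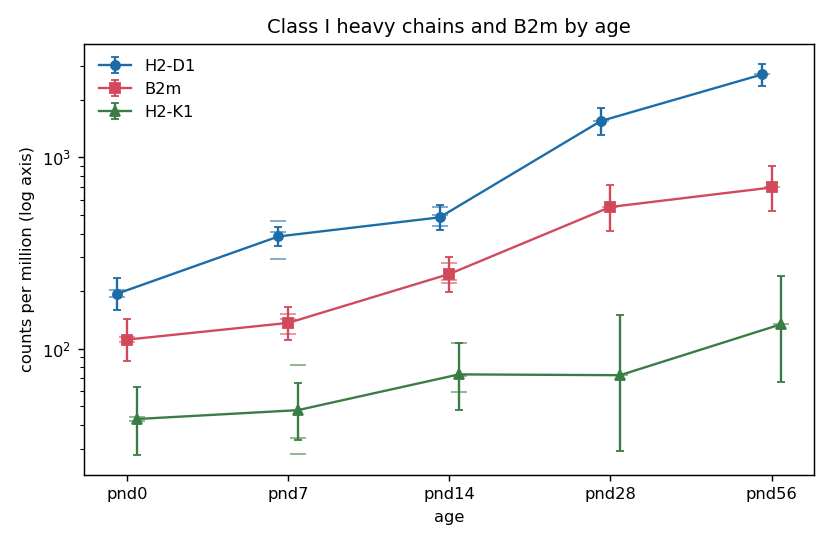
Level of H2-D1, B2m and H2-K1 at the 5 ages, in CPM on a log axis, with exact Poisson 95% intervals; short horizontal ticks mark the blocks of title numbers. H2-D1 reaches 2711 CPM at pnd56 and B2m 696 CPM, while the wide intervals of H2-K1 overlap between neighbouring ages.

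Promoter windows of class I genes are shown because these genes share a well-known pair of elements, while their counts differed widely. The windows come from the RefSeq promoters of GRCm38.p6, which run over 300 bases, 250 before the start site and 50 after it. The submitters' processing notes name the older build mm9, so these coordinates belong to the reference and not to the deposited counts. Each window is written 5′ to 3′ along the gene. Capitals mark, in this order, the kappaB element and the class I interferon-stimulated response element (ISRE), each searched on both strands as exactly the letters shown in the H2-D1 window; H2-Q4 holds the ISRE alone. The H2-D1 window lies at chr17:35262908-35262967 on the plus strand and the H2-K1 window at chr17:34000414-34000473 on the minus strand. Those of H2-Q4, H2-Q6 and H2-Q7, from the neighbouring Q cluster, lie on the plus strand at chr17:35379448-35379487, chr17:35424662-35424721 and chr17:35439007-35439065.
H2-D1: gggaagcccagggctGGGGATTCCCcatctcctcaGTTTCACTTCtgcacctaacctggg
H2-K1: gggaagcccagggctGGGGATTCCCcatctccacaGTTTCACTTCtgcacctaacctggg
H2-Q4: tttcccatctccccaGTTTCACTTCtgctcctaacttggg
H2-Q6: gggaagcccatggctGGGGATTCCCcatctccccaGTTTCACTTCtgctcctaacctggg
H2-Q7: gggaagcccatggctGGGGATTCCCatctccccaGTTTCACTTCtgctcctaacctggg
Of the 76 members with a RefSeq promoter, the kappaB letters were found in 4 (H2-D1, H2-K1, H2-Q6 and H2-Q7) and those of the class I ISRE in 6 (also H2-Q4 and H2-M3). Among all 27025 gene symbols with a promoter, 0.126% held the first and 0.163% the second. The letters searched are those of the H2-D1 window itself, so these shares are no test of enrichment. A match describes the sequence and does not show that a factor is bound.

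The Q genes, which encode non-classical class I molecules, had few counts. Of the 4 with a RefSeq promoter, H2-Q6 and H2-Q7 hold both elements, H2-Q4 the ISRE alone and H2-Q2 neither. The 6 Q rows together had 35, 30, 19, 9 and 8 counts, or 60.1, 40.9, 53.7, 93.5 and 97.7 CPM, and their ratio of pnd56 over pnd0 was log2 0.70 [−0.62, 1.84]. H2-Q4 had 12, 12, 7, 2 and 3 counts and H2-Q6 12, 10, 10, 5 and 2. Both were counted in 25 cells, 18 of them the same cells, and in 16 of these the counts were equal. The class I genes are near-identical copies in their coding parts, and the sources used here do not give how reads that match several copies were counted, so H2-Q4 and H2-Q6 may hold the same reads and the split among H2 rows is uncertain. H2-K1 and H2-D1 were counted together in 51 cells, with equal counts in 13. H2-Bl, another non-classical heavy chain, had 16, 8, 7, 2 and 2 counts, and stood at 10.9 CPM at pnd7, against 27.5 CPM at pnd0 (log2 −1.33 [−2.76, −0.02]). The other 7 class I rows had fewer than 20 counts each in the series. Without H2-D1, the class I group summed to 247.2, 246.9, 392.6, 758.5 and 952.5 CPM, which is log2 1.95 [1.53, 2.35] for pnd56 over pnd0, so the difference did not rest on H2-D1 alone but was smaller without it.

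More cells had a class I count at the later ages, also at equal depth. H2-D1 was counted in 35.8%, 49.1%, 44.5%, 75% and 91.1% of the cells. With each cell thinned to 1500 counts, which left 33 and 25 cells at the 2 oldest ages, the shares were 21.95%, 35.4%, 39.8%, 75.8% and 88%. Its median per thinned cell was 0 counts at the 3 younger ages, 2 counts at pnd28 and 5 counts at pnd56. B2m was counted in 11.6%, 16.1%, 24.8%, 42.4% and 56.0% of the thinned cells. Cells with both an H2-D1 and a B2m count were 2.44%, 4.72%, 11.5%, 30.3% and 48% of the thinned cells. Most cells of the 2 oldest ages thus had an H2-D1 count at equal depth. The variance of the thinned H2-D1 count over its mean was 1.54, 1.83, 1.55, 2.32 and 2.42. The treatment of molecular identifiers is not stated, so these ratios cannot be set against counting error alone.

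**Figure D3:**
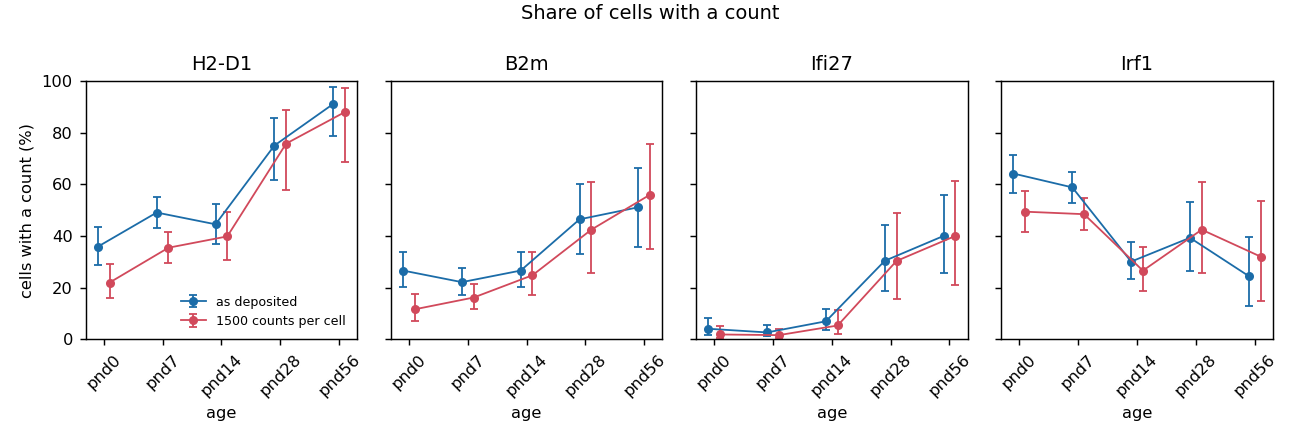
Share of cells with a count of H2-D1, B2m, Ifi27 and Irf1 at the 5 ages, in percent, as deposited and with each cell thinned to 1500 counts, with exact Clopper-Pearson 95% intervals. The thinned share of H2-D1 stands at 21.95% at pnd0 and 88% at pnd56, and that of Irf1 at 26.5% at pnd14, against 48.4% at pnd7.

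Stroma and immune markers were also higher at pnd28 and pnd56 than at pnd0. The 10 stroma markers with a row, of 12, summed to 42.9, 130, 878.4, 3636 and 2931 CPM. At pnd28 41 of the 56 cells, or 73.2%, had a stroma marker count. Without the cell with the largest count, the list still stood at 3031 CPM at that age. At pnd56 1 cell held 75.8% of the stroma marker counts, only 8 cells had one, and without that cell the list stood at 749.5 CPM. The 17 immune markers with a row, of 33, summed to 183.7, 226.5, 211.8, 717 and 525.1 CPM. All 3 immune markers that could be measured between pnd28 and pnd14 were at least 2-fold higher at pnd28, against 11.9% of all measured rows. At pnd28 6 of the 17 were at 0, and at pnd56 9 were, among them at both ages the pan-leukocyte gene Ptprc, which had 1 count in the series. The smooth muscle list, with 6 of 10 rows, peaked at pnd14 with 2844 CPM, against 190 CPM at pnd7, and stood at 110 CPM at pnd56, all of it from 1 cell. In the cells with no count of any immune, stroma, smooth muscle, endothelium or erythroid marker (57, 70, 38, 8 and 18 cells), the class I group stood at 514.3 [408.4, 639.2], 643 [529.5, 774], 596 [434.8, 797.6], 2490 [1734, 3463] and 3186 [2548, 3934] CPM. In these cells the class I ratio was log2 2.63 for pnd56 over pnd0 and 2.06 for pnd28 over pnd14, against 3.05 and 1.39 in all cells, while the step between pnd14 and pnd7 was −0.11, against 0.47 [0.26, 0.68] in all cells. In the cells with a Krt18 or Epcam count and no immune marker count, 25 of them at pnd28 and 24 at pnd56, the step between pnd28 and pnd14 was smaller, at log2 0.99, which is just under 2-fold, and the ratio of pnd56 over pnd0 was 3.03. The size of the pnd28 step thus depended on which cells were kept. H2-D1 alone stood at 285.7 [208.4, 382.3], 436 [344, 546.2], 384 [257.3, 551.7], 1494 [924.8, 2284] and 2630 [2054, 3317] CPM in the cells with no marker count of another cell type. B2m in the same cells had 158.7 [102.7, 234.3] CPM at pnd0 and 333.4 [152.4, 632.8] CPM at pnd56, with overlapping intervals. In the cells with a Krt18 or Epcam count and no immune marker count, the B2m intervals of these ages were apart. They were 134.5 [98.1, 179.97] and 622.3 [413.5, 899.5] CPM. Those of pnd14 and pnd28 overlapped there, at 204.5 [152.7, 268.1] and 249.9 [124.7, 447.1] CPM.

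H2-D1 was also compared between cells with and without a count of Cd74, the chaperone chain of class II molecules. At pnd14, H2-D1 stood at 1134 [648.3, 1842] CPM in the 6 cells with a Cd74 count, against 459 [390, 536.8] CPM in the other cells, and these intervals were apart. At pnd28, H2-D1 stood at 1635 [1348, 1966] CPM in the 38 cells with a Cd74 count, against 1326 [928.5, 1835] CPM in the 18 cells without. At pnd56, it stood at 2531 [1743, 3555] CPM in 7 cells with Cd74 and 2745 [2367, 3165] CPM in 38 cells without. At the 2 oldest ages the intervals overlapped. Cells with a count of an immune marker had 1943 [1543, 2414] CPM of H2-D1 at pnd28 (23 cells), against 1247 [968, 1580] CPM in the 33 cells without, and 2753 [2211, 3388] against 2683 [2247, 3180] CPM at pnd56 (18 and 27 cells), with overlapping intervals at both ages. The part of other cell types in the differences between ages was not tested beyond these values.

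Peptide supply was higher at the later ages through Psmb8. Psmb8 encodes LMP7, the catalytic subunit that takes the place of PSMB5 in the immunoproteasome. It had 28, 30 and 28 counts at pnd0, pnd28 and pnd56, and its levels were 48.1 [31.9, 69.5], 145.98 [120, 176.4], 107.3 [75.95, 147.3], 312 [210, 444.96] and 341.9 [227.2, 494.1] CPM. Its blocks did not overlap between pnd0 (33.9 to 62.7 CPM) and pnd7 (105.6 to 180.7 CPM), a step of log2 1.60 [0.99, 2.26]. At pnd56 Psmb8 was 7.11-fold higher than at pnd0 (log2 2.83 [2.02, 3.64]). Single cells weighed on the later values: 1 cell held 33.3% of the pnd28 counts and 1 cell 35.7% of the pnd56 counts, and without them the levels were 211.7 and 223.1 CPM. In the cells with no marker count of another cell type, the 3 genes of peptide supply together were lower at pnd28 than at pnd14, at log2 −0.90, against 1.03 [0.40, 1.64] in all cells, so this step depended on which cells were kept.

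Tap1, one half-transporter of TAP, had 63.5, 77.8, 48.02, 41.6 and 97.7 CPM, and its ratio of pnd56 over pnd0 was log2 0.62 [−0.69, 1.75]. Tap1 overlaps Psmb9 on the opposite strand in GENCODE M21, and the sources used here do not say whether counting used strand, so its reads may not all be its own. The same holds for B2m with Patl2, Stat3 with Stat5a, Irf5 with Tnpo3 and Trim14 with Nans, and Irf9 overlaps Rnf31 on its own strand. Tap2, its partner, had 7, 10, 10, 2 and 0 counts. The RefSeq promoter of Psmb8 holds the letters of a gamma-activated site (GAS, TTCNNNGAA), an element of genes induced by interferon gamma, and Tap1 holds none of the elements searched. The Psmb8 window lies at chr17:34198083-34198121 on the plus strand, with the site in capitals.
Psmb8: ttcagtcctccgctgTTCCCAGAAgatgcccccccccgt
A GAS was found in 14 of the 76 members with a promoter and in 9.55% of all symbols.

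The planned share of immunoproteasome over constitutive subunits could be formed for Psmb8 alone. Its direct counterpart Psmb5 had 8, 2, 2, 0 and 0 counts, too few to set a share against. Against Psmb6, another constitutive catalytic subunit, Psmb8 made up 3.31% [2.21, 4.75], 8.28% [6.84, 9.92], 6.62% [4.73, 8.97], 36.1% [25.9, 47.4] and 20.6% [14.1, 28.4] of the counts of both. Psmb6 itself stood at 550.7 CPM at pnd28, against 1514 CPM at pnd14, so the high share at pnd28 came with fewer Psmb6 counts as well as with more of Psmb8. The share does not depend on the scaling of an age.

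Of the other proteins of the loading step, 7 were listed and all had a row. Over the whole span 5 could be measured, of which 2 were at least 2-fold higher and 1 lower, against 10.3% and 27.4% of all measured rows. Tapbp, which encodes tapasin, the bridge between TAP and class I, stood at 818.1 CPM at pnd56, against 384 CPM at pnd0 (log2 1.09 [0.67, 1.49]). The chaperone Hspa5, known as BiP and as a marker of load in the endoplasmic reticulum, stood at 1172 CPM at pnd56, against 345 CPM at pnd0 (log2 1.76 [1.40, 2.12]), and was at its peak of 1953 CPM at pnd28. Pdia3, the disulfide isomerase of the loading complex, also peaked at pnd28, at 270 CPM, against 48.02 CPM at pnd14 (log2 2.49 [1.56, 3.47]). Calr, the chaperone calreticulin, had 9 counts at pnd28 and 1 count at pnd56. Psme1, of the proteasome activator PA28, stood at 488.4 CPM at pnd56, against 570 CPM at pnd0 (log2 −0.22 [−0.73, 0.25]).

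The interferon-induced genes were higher at pnd56 through 4 of the 5 members measured over the whole span. Ifi27, a small mitochondrial protein gene widely used as an interferon marker, had 7, 11, 36, 54 and 54 counts. These gave 12.01 [4.83, 24.8], 15.01 [7.49, 26.9], 101.7 [71.2, 140.8], 561.1 [421.5, 732] and 659.4 [495.4, 860] CPM. Over all cells its level was thus low at the first 2 ages and apart from them at each later one. It was 54.9-fold higher at pnd56 than at pnd0 (log2 5.78 [4.64, 7.16]). Its thinned share of cells was 1.83%, 1.57%, 5.31%, 30.3% and 40%. At pnd14 1 cell held 38.9% of its counts, and the 62 cells of that age with a stroma marker count held 27 of the 36 Ifi27 counts. At pnd28 the 41 cells with a stroma marker count, of 56, held 46 of the 54 Ifi27 counts. In the cells with no marker count of another cell type, Ifi27 had 1, 5, 4, 1 and 14 counts, or 6.35, 28.7, 52.99, 71.1 [1.80, 396.4] and 518.6 [283.5, 870] CPM. There the high level was seen at pnd56, and the 8 such cells at pnd28 left its interval too wide to place. In the cells with a Krt18 or Epcam count and no immune marker count, the Ifi27 intervals of pnd14 and pnd28 overlapped. They were 110.1 [73.2, 159.1] and 204.5 [93.5, 388.1] CPM, against 644.6 [431.7, 925.7] CPM at pnd56.

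Ifi35, which encodes a leucine zipper protein induced by interferon, followed another course. Its levels were 254.03 [214.8, 298], 133.7 [108.5, 162.9], 180.8 [139.2, 230.8], 135.1 [71.9, 230.97] and 659.4 [495.4, 860] CPM. Newborn cells thus stood above those of pnd7, and pnd56 stood above all 4 younger ages. The ratio of pnd56 over pnd28 was log2 2.29 [1.40, 3.29], and over pnd0 1.38 [0.90, 1.84]. Its thinned share of cells was 36% at pnd56, against 25% at pnd0.

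Oasl1 and Oasl2, members of the oligoadenylate synthetase family that take part in the answer to double-stranded RNA, differed in timing. Oasl1 had 49.8, 27.3, 28.2, 10.4 and 464.01 CPM, from 29, 20, 10, 1 and 38 counts, and had its highest level at pnd56, where its interval of 328 to 637 CPM lay above those of all younger ages. Its ratio of pnd56 over pnd0 was log2 3.22 [2.49, 3.97]. At pnd56 1 cell held 34.2% of its counts, and the level without that cell was 312.8 CPM. Oasl2 had 29.2, 17.7, 50.8, 145.5 and 207.6 CPM, was 7.11-fold higher at pnd56 than at pnd0 (log2 2.83 [1.77, 3.89]), and had 57.1% of its pnd28 counts in 1 cell. Isg20, an interferon-induced exonuclease gene, had 4, 4, 29, 9 and 2 counts and stood at 81.9 CPM at pnd14, against 5.46 CPM at pnd7 (log2 3.91 [2.40, 5.88]), with blocks of 36.99 to 136.8 CPM at pnd14, against at most 14.6 CPM at pnd7. Its 2 counts at pnd56 make 24.4 [2.96, 88.2] CPM.

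Several of the genes most often used to read an interferon response were almost uncounted. Over all 714 cells, the ubiquitin-like modifier Isg15 had 1 count, Ifit3 had 6, Oas2 had 7, Ifit2 had 8, Usp18 had 11 and Ifit1 had 17. The guanylate-binding gene Gbp2 had 3, 8, 4, 5 and 8 counts, or 5.15, 10.9, 11.3, 51.9 and 97.7 CPM. Ifi47, an immunity-related GTPase gene, had 6, 15, 7, 0 and 11 counts, or 134.3 CPM at pnd56, against 10.3 CPM at pnd0. Both were higher at pnd56 than at pnd0, at log2 4.25 [2.19, 6.79] and 3.71 [2.14, 5.42]. With fewer than 20 counts over these 2 ages, neither was among the measured members. At pnd56 a gene with no count could still stand at up to 45.04 CPM, the exact upper limit of 0 counts, so low levels of such a gene were not detectable at this depth. In all, 13 of the 21 interferon-induced rows had fewer than 20 counts in the series. The general ISRE, a pair of GAAA runs with any 2 bases between them on either strand, is shown in capitals for 5 genes. Isg15, Ifit1 and Gbp2 had few counts, while B2m and Stat2 were measured. The levels of B2m and Stat2 were higher at pnd56 than at pnd0, as was that of Gbp2 on its few counts. The other measured members that hold this element were not clearly higher. Irf2 had 21 counts at pnd0 and 0 at pnd56. Trim2 and Trim26 stood at log2 0.17 [−2.23, 1.93] and 0.65 [−0.02, 1.27] for pnd56 over pnd0, with intervals that held 0. The windows lie at chr4:156200860-156200911 on the minus strand for Isg15 and, on the plus strand, at chr19:34640770-34640828 for Ifit1, chr3:142620589-142620628 for Gbp2, chr2:122147533-122147572 for B2m and chr10:128270261-128270300 for Stat2.
Isg15: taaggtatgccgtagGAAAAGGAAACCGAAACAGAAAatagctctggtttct
Ifit1: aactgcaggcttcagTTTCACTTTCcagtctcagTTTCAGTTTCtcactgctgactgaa
Gbp2: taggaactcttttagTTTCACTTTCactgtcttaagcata
B2m: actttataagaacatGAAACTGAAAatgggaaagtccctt
Stat2: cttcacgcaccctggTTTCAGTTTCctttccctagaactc
Capitals that read TTTC are matches on the other strand, and a longer run of capitals holds overlapping matches. The element was found in 15 of the 76 members with a promoter and in 3.99% of all symbols, and in 6 of the 15 interferon-induced members with a promoter. The Oasl1 and Oasl2 promoters hold none of these letters within their 300 bases, which says nothing of the factors that act there.

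Among the regulators, Stat2 was higher at pnd56 and Irf1 was lower. STAT2 and IRF9 are parts of the factor that binds the ISRE. Stat2 had 42.9, 77.8, 70.6, 83.1 and 244.2 CPM, and was 5.69-fold higher at pnd56 than at pnd0 (log2 2.51 [1.58, 3.42]). It rested on few cells, with a count in 5 cells at pnd28 and 8 at pnd56. Its step between pnd56 and pnd28, log2 1.55 [0.31, 2.95], was −0.25 in the cells that had a Krt18 or Epcam count and no immune marker count. Irf9 had 82.4, 58.7, 93.2, 83.1 and 36.6 CPM, with log2 −1.17 [−3.50, 0.46] over the whole span.

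Irf1, itself an interferon target and an activator of class I and immunoproteasome genes, was lower at pnd56. Its levels were 762 [693, 836], 652.2 [594.99, 713.3], 350 [291, 417.6], 654.6 [502.98, 837.5] and 269 [168.4, 406.7] CPM. The intervals of pnd0 and pnd7 overlapped with that of pnd28, and all 3 lay above those of pnd14 and pnd56. Irf1 was lower at pnd56 than at pnd0, at log2 −1.504 [−2.19, −0.89]. Its thinned share of cells was 49.4%, 48.4%, 26.5%, 42.4% and 32%. Of its 2 RefSeq start sites, 1 has a promoter that holds a GAS, at chr11:53769909-53769947 on the plus strand, and the other holds none of the elements searched; the window is shown because Irf1 is a textbook target of interferon gamma.
Irf1: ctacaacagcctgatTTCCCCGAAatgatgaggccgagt
Stat2 was thus higher and Irf1 lower at pnd56 than at pnd0.

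**Figure D4:**
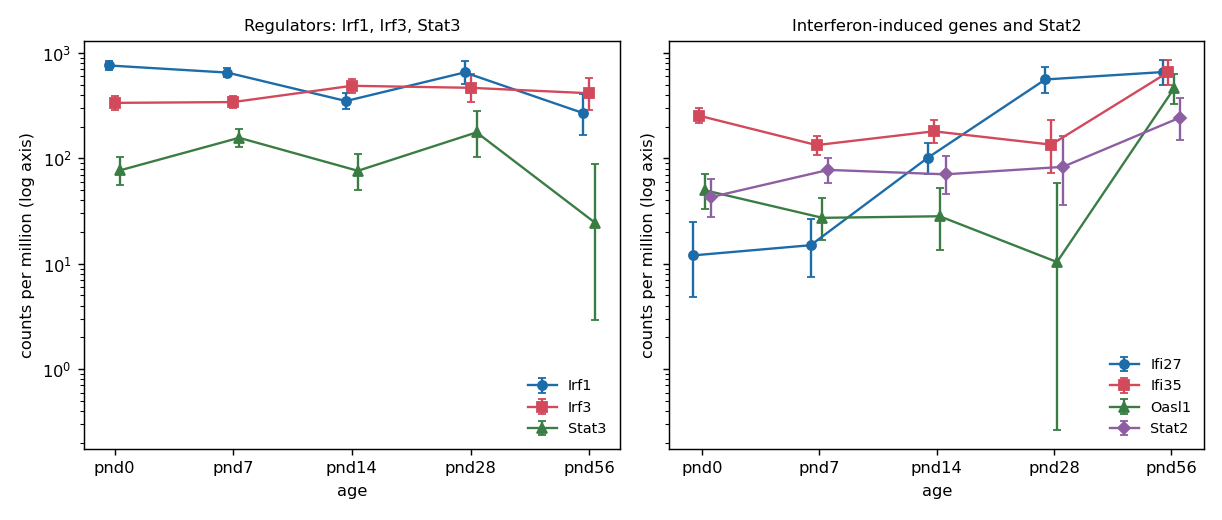
Levels of 3 regulators (left) and of 3 interferon-induced genes with Stat2 (right) at the 5 ages, in CPM on a log axis, with exact Poisson 95% intervals. Irf1 stands at 762 CPM at pnd0 and 269 CPM at pnd56, and Oasl1 stands at 464.01 CPM at pnd56, against 10.4 CPM at pnd28.

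The other regulators each had a course of their own. Irf3, the sensor-activated factor that starts interferon transcription, had 336, 342.4, 488.6, 467.5 and 415.2 CPM. Its step between pnd14 and pnd7 was log2 0.51 [0.23, 0.80], an interval that leaves out 0, and its ratio over the whole span was log2 0.30 [−0.27, 0.83]. Irf3 overlaps Bcl2l12 on the opposite strand. Stat3, the factor of cytokines such as LIF and interleukin 6, had 77.2, 156.9, 76.3, 176.6 and 24.4 CPM. Levels at pnd7 and pnd28 were above those of pnd0 and pnd14, and its 2 counts at pnd56 came from 1 cell. Irf5 had 176.8, 216.9, 183.6, 93.5 and 122.1 CPM. Irf8, a factor of myeloid cells, had 1, 1, 0, 5 and 5 counts, all 5 at pnd56 in 1 cell. Nlrc5, the transactivator of class I genes, had 0, 2, 0, 0 and 1 counts, so its course could not be read at this depth. Irf2bp1, taken in by its name, stood at 97.7 CPM at pnd56, against 96.1 CPM at pnd0.

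The receptors and kinases upstream were listed separately. Of 12 interferon and receptor genes, 8 had a row and 4 could be measured over the whole span. Ifngr1, one chain of the interferon gamma receptor, stood at 183.2 CPM at pnd56, against 49.8 CPM at pnd0 (log2 1.88 [0.87, 2.83]), while its partner Ifngr2 had 19, 11, 0, 0 and 1 counts. Ifnar2, of the type I receptor, had 75.5, 65.5, 96.03, 124.7 and 48.8 CPM. Interferon epsilon (Ifne) had 1, 0, 3, 0 and 1 counts, too few to place. Jak2, a kinase of the gamma receptor, stood at 232.01 CPM at pnd56, against 195.7 CPM at pnd0 (log2 0.25 [−0.54, 0.95]).

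Interferon-induced genes outside the name rule were given from a list of 37, of which 30 had a row and 11 could be measured over the whole span. Of these 11, 6 were at least 2-fold higher and 2 lower, with a median log2 ratio of 1.40, against 10.3% and 27.4% of all measured rows and a median of −0.34. The list's summed level was close at both ends, with 10050 CPM at pnd56, against 10746 CPM at pnd0. Ly6e, a surface protein gene that hinders virus entry, had 1078, 1195, 782, 3730 and 5043 CPM, log2 2.23 [2.04, 2.41] for pnd56 over pnd0. Rnf213, a large ubiquitin ligase gene, stood at 977 CPM at pnd56, against 173.4 CPM at pnd0 (log2 2.49 [2.05, 2.93]), and at 114.3 CPM at pnd28. Rtp4, a chaperone gene for receptors, had 22.3, 38.2, 16.9, 135.1 and 232.01 CPM, with log2 3.38 [2.28, 4.52] over the span. Shisa5 and the editing enzyme gene Adar were higher as well, at log2 1.70 [1.23, 2.14] and 1.41 [0.80, 1.99]. Ifitm1, a membrane gene known also from germ cells and embryonic tissue, was lower, with 8429, 7737, 6635, 3138 and 1441 CPM, at log2 −2.55 [−2.82, −2.28].

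**Figure D5:**
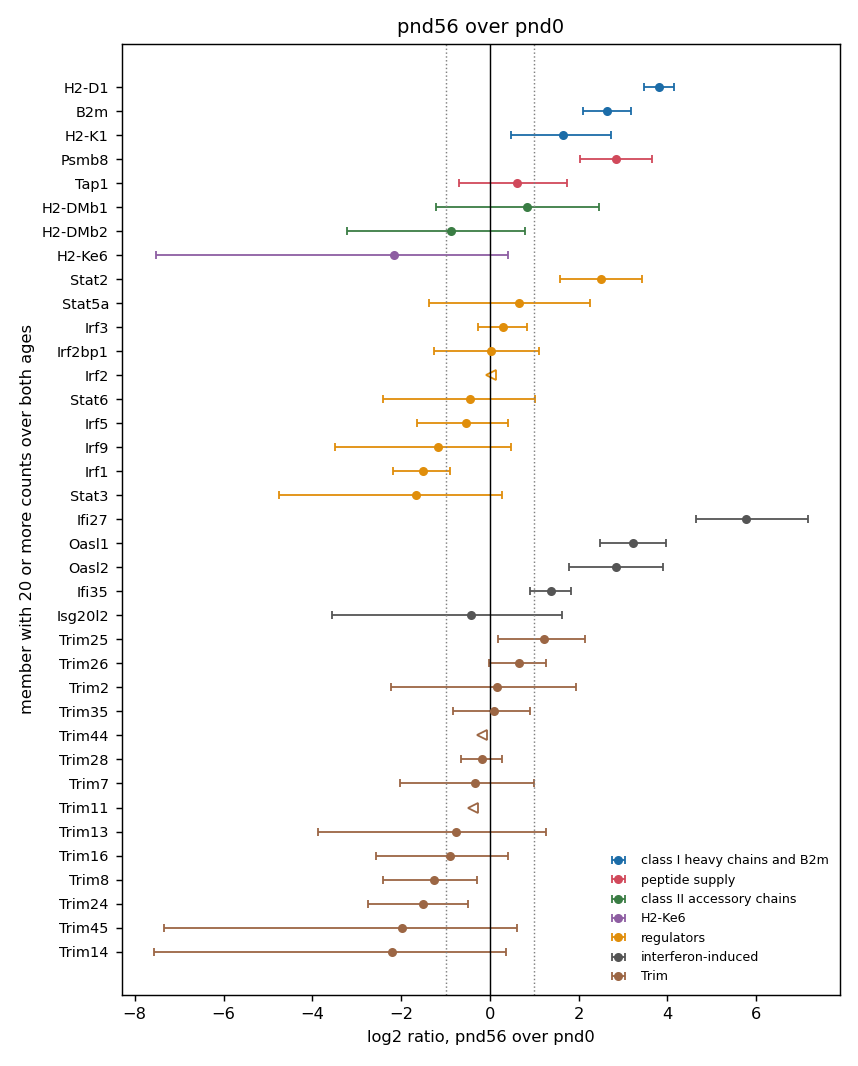
Log2 ratio of pnd56 over pnd0 for 37 of the 39 members with at least 20 counts over both ages, grouped and coloured by role, with exact conditional binomial 95% intervals; dotted lines mark 2-fold, and open triangles mark upper bounds for 3 genes (Irf2, Trim44 and Trim11) with no count at pnd56. Class I genes, Psmb8, Stat2 and most interferon-induced genes lie right of 0, while Irf1, Trim8 and Trim24 lie left of it.

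The Trim genes, a family of ubiquitin ligases of which only some answer to interferon, made up 40 of the rows, and 19 of these had fewer than 20 counts. Over the whole span 14 were measured, with 1 at least 2-fold higher, 4 lower and a median log2 ratio of −0.37, beside 10.3% higher, 27.4% lower and a median of −0.34 for all measured rows. These shares of Trim genes lie near those of all rows. Trim25, which activates the RNA sensor RIG-I, was the higher one, with 68.7, 130, 62.1, 124.7 and 158.7 CPM (log2 1.21 [0.18, 2.14]). Trim28, the co-repressor that silences retroelements, had 635.1, 610, 434.97, 374 and 561.7 CPM. Trim24 and Trim8 were lower at pnd56 than at pnd0, at log2 −1.5002 [−2.74, −0.49] and −1.26 [−2.41, −0.29]. Trim16 stood at 28.2 CPM at pnd14, against 169.2 CPM at pnd7 (log2 −2.58 [−3.68, −1.66]), and at 145.5 CPM at pnd28. The low value of pnd14 was shared by all its blocks, none above 44.4 CPM, against at least 130 CPM in each block of pnd7. Trim14 and Trim45 had 1 count each at pnd56, and their ratios were log2 −2.21 [−7.56, 0.36] and −1.98 [−7.33, 0.62].

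The class II accessory chains, which edit peptides on class II molecules, had their highest sum at pnd28, where 1 cell held 30.6% of the counts. They summed to 123.6, 62.8, 67.8, 374 and 244.2 CPM, lower at pnd7 than at pnd0 (log2 −0.98 [−1.54, −0.42]) and higher at pnd28 than at pnd14 (log2 2.46 [1.68, 3.27]). H2-DMa had 15 counts at pnd28 and 12 at pnd56, against 7 at pnd14 and 6 at pnd0, and overlaps Brd2 on the opposite strand. H2-Oa had 14 counts at pnd28, in 3 cells, and 0 at pnd14 and pnd56. H2-DMb2 had 39, 23, 8, 5 and 3 counts, or 66.9, 31.4, 22.6, 51.9 and 36.6 CPM, with its highest level at pnd0. H2-DMb1 had 16, 17, 8, 1 and 4 counts, or 27.5, 23.2, 22.6, 10.4 and 48.8 CPM, with its lowest level at pnd28. H2-Ke6, the dehydrogenase gene, had 54.9, 114.6, 135.6, 291 and 12.2 CPM, with 1 count at pnd56, which is log2 −4.57 [−9.93, −1.98] over pnd28. At pnd28 1 cell held 35.7% of its counts.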

How the data were processed

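The authors deposited whole-number counts per gene and cell; that they are raw counts was read from the values, since totals differ between cells. Per the submitters' processing notes, TopHat, Cuffnorm and mm9 were used; no version is given there, and the treatment of molecular identifiers is not stated. There were 101 members, and 173, 267, 173, 56 and 45 cells from pnd0 to pnd56, of which 164, 254, 113, 33 and 25 had 1500 counts or more. Counts were summed over the cells of each age and divided by all counts (Python 3.11.15, NumPy 2.4.6, SciPy 1.17.1). Ratios carry exact conditional binomial 95% intervals; with 0 counts at one age a floor of 3 counts gave a bound. The ratio code was tested on simulated Poisson counts, which hold counting error only and no spread between cells or animals. Members, lists and the rule for named genes were chosen with earlier results of these data known: class I and peptide genes with 20 or more counts, the others with 50 or more in the series or a called difference with all blocks apart. The class II accessory chains, H2-Ke6, Irf8, Nlrc5, Gbp2, Ifi47, Isg15, Usp18, Oas2 and the Ifit genes were named after their values were seen. Overlapping genes were looked up by name in GENCODE M21, in which all 101 members have an entry. Cell type lists for endothelium and erythroid cells served to leave out cells; the erythroid list stood at 0 CPM at pnd56, against 13467 CPM at pnd0, where 1 cell held 78.3% of the counts and the blocks lay at 6.96 and 26555 CPM (2972 CPM without that cell), and the endothelium list at 305 CPM at pnd56, against 201 CPM at pnd0. Some members counted in the totals are not reported here by name.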

Additional observations from a re-analysis of the deposited data

How the results depend on the processing

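No paired analysis was possible because each age is 1 sample and the labels give no replicate numbers. With each cell thinned to 1500 counts, the members at least 2-fold higher were 5 (pnd7 over pnd0), 3 (pnd14 over pnd7), 4 (pnd28 over pnd14) and 2 (pnd56 over pnd28). The shares of all rows higher were 5.44%, 10.1%, 12.3% and 17.4% in the same order. Those lower were 0 (pnd56 over pnd28, all rows 16.5%) and 2 (pnd56 over pnd0, all rows 26.1%). Irf2 turned to log2 −0.0794 for pnd14 over pnd7, against 1.21, and Trim8 to 0.40 for pnd56 over pnd28, against −1.06. Median-of-ratios scaling gave 5 higher for pnd7 over pnd0 (all rows 5.33%) and 3 lower for pnd14 over pnd7 (all rows 12.3%). In cells with a Krt18 or Epcam count and no immune marker count, 2 were lower for pnd14 over pnd7 (all rows 15.5%). For pnd28 over pnd14, 7 were higher and 5 lower (all rows 12.9% and 23.6%). For pnd56 over pnd28, 1 was lower (median 1.28, all rows 16.3% lower), and for pnd56 over pnd0, 7 were higher (all rows 11.8%). There the class I sum was 0.99 for pnd28 over pnd14 and 1.17 for pnd56 over pnd28, the interferon-induced sum 0.55 for pnd28 over pnd14, and Stat2 turned to −0.25 for pnd56 over pnd28. Without the cell with the most member counts, 2 were lower for pnd56 over pnd28 (all rows 16.9%). With a minimum of 10 counts, 6 were higher and 5 lower for pnd7 over pnd0 (all rows 7.88% and 11.3%). In that setting, 4 were lower for pnd28 over pnd14 (all rows 22.3%) and 10 lower for pnd56 over pnd28 (all rows 21.8%). With a minimum of 50, 1 was lower for pnd7 over pnd0 (all rows 3.30%). For pnd14 over pnd7, 2 were higher and 3 lower (all rows 7.72% and 10.4%), and for pnd28 over pnd14, 5 were higher (all rows 9.24%). For pnd56 over pnd28, 1 was higher and 1 lower (all rows 15.5% and 10.8%). For pnd56 over pnd0, 7 were higher and 4 lower (all rows 9.44% and 28.8%). Leaving out 1 block at a time gave 2 to 10 higher and 1 to 4 lower for pnd7 over pnd0, against 4.41% to 9.45% and 7.30% to 9.54% of all rows. For pnd14 over pnd7 it gave 5 to 9 higher and 3 to 9 lower, against 10.4% to 12.3% and 11.8% to 18.02% of all rows. The 10 came without block 2 of pnd0, and both the 5 and the 9 lower without block 7 of pnd14. The number of members measured differed between settings, so these counts are not shares and cannot be compared directly. Over all measured rows, the shares higher and lower in these settings were 2.57% to 9.45% and 3.30% to 11.3% (pnd7 over pnd0), 7.72% to 13.9% and 10.4% to 18.02% (pnd14 over pnd7), 9.24% to 15.5% and 18.7% to 25.2% (pnd28 over pnd14), 15.3% to 18.6% and 10.8% to 21.8% (pnd56 over pnd28), and 9.44% to 13.2% and 22.5% to 29.4% (pnd56 over pnd0).

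Cells with no marker count of another type, and leaving out the cell with the largest count of a gene, role group or marker list, were alternatives chosen after seeing the data. In the first, the class I sum was −0.11, 2.06, 0.36 and 2.63 and the interferon-induced sum 0.15, 0.53, 1.87 and 1.86 for pnd14 over pnd7, pnd28 over pnd14, pnd56 over pnd28 and pnd56 over pnd0; peptide supply turned to −0.90 for pnd28 over pnd14. For pnd56 over pnd0, the class I sum ranged over 2.63 to 3.24 and the interferon-induced sum over 1.86 to 2.66 in the alternatives run. H2-D1 ranged over 3.73 to 3.99, but the cells with no marker count of another type were run for role groups only. In those cells H2-D1 stood at 285.7 CPM at pnd0 and 2630 CPM at pnd56, closer together than in all cells (193.95 and 2711 CPM). The cause of these changes was not tested. Depth limits pnd28 and pnd56 most, and no alternative replaces the missing replicate animals.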
